A study of Homo sapiens with 11 samples.

Results

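The genes of MRC5, a noncancerous human lung fibroblast line, were grouped by where they lie relative to the chromatin domains of the same line, and their expression and functions were compared. A gene was placed at the midpoint of its locus. A boundary gene had its midpoint within 40 kb of the start or end of an MRC5 domain, an interior gene lay inside a domain further in, and an outside gene lay in no domain. Of 57815 genes listed, 4948 with small RNA symbols were left out (those that begin with MIR, RNY, Y_RNA, SNOR or RNU, which also removes host genes of microRNAs). The other 52867 genes gave 12515 boundary genes (23.7%), 19492 interior genes (36.9%) and 20860 outside genes (39.5%). The classes use positions alone, so expression had no part in placing a gene in its class. The class rule itself was chosen with earlier results of these data known.

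Expression was measured by RNA-seq in 3 MRC5 libraries as FPKM, which divides the fragments of a gene by its transcript length and by the size of the library, and a gene was called expressed at 1 FPKM or more. Domains came from 1 MRC5 Hi-C library, an assay that counts contacts between crosslinked stretches of chromatin. DMS153, with 3 RNA libraries, and H209, with 2, are established small cell lung carcinoma lines grown in the same medium as MRC5, and each also has 1 Hi-C library. The titles of the DMS153 RNA libraries spell it DM153. The labels name no drug or genetic change, and each line stands for its cell type alone. The labels number the RNA libraries but do not say that they came from separate cultures, so every SD and p-value here measures the spread between libraries, which may be technical.

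Chromatin domains are stretches of a chromosome that contact themselves more often than they contact their flanks. In mammals many domain boundaries are bound by the zinc finger protein CTCF and the ring-shaped cohesin complex, and boundaries are known to lie in gene-rich DNA with many promoters of housekeeping genes, which every cell uses. Genes of cell identity and large clustered families, such as olfactory receptors, often share one domain.

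The 3701 MRC5 domains had a median length of 300 kb and ranged from 80 to 2000 kb on a 20 kb grid of the hg19 assembly. Between 13391 and 13528 genes were expressed per MRC5 library, and the libraries correlated at r = 0.996 to 0.997 on the log2 scale. All 14 fibroblast markers were expressed, with a summed level of 11410 to 12482 FPKM. None of 8 neuroendocrine markers reached 1 FPKM, with a sum of 0.117 to 0.282 FPKM and GRP, NEUROD1 and INSM1 at 0. Of the other marker lists, 2 of 12 epithelial genes (KRT8 and KRT18), 1 of 7 endothelial genes found (TEK), 1 of 8 blood cell genes (CD68) and 4 of 6 smooth muscle and pericyte genes were expressed, and the epithelial markers NKX2-1 and KRT5 and the blood marker TYROBP were at 0. In such bulk libraries, fewer cells of a type and less RNA per cell cannot be told apart. The depth of the libraries is not given, and the half-width of the deposited confidence interval had a median of 12.0% to 12.9% for genes of 1 to 10 FPKM and 3.52% to 3.60% above 100 FPKM.

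Boundary genes were expressed more often than genes in either other class. In MRC5 libraries 1, 2 and 3, the expressed share was 35.2%, 35.2% and 35.1% of boundary genes, against 21.8%, 21.6% and 21.7% of interior genes and 23.3%, 22.9% and 23.1% of outside genes. The lowest boundary value lay above the highest value of both other classes. The boundary share exceeded the interior share by 13.5 ± 0.0988 percentage points and the outside share by 12.1 ± 0.172 percentage points (SD, n = 3 libraries). Both gaps were far larger than the spread between libraries, which does not cover how 1 Hi-C library placed the domains, and genes are not replicates, so no test across genes was made.

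Expressed boundary genes also had a higher level. Their median was 11.7 ± 0.170 FPKM, against 9.60 ± 0.0720 FPKM for interior and 9.80 ± 0.188 FPKM for outside genes (SD, n = 3). On the log2(FPKM + 1) scale the boundary median was above the interior median by 0.26 ± 0.02. Levels of at least 100 FPKM were reached by 355 boundary genes (2.84%), 233 interior genes (1.20%) and 304 outside genes (1.46%). At the other end, 25.1% of boundary genes, 37.2% of interior genes and 38.3% of outside genes were at 0 in all MRC5 libraries. Boundary genes held 34.9% of the summed FPKM, interior genes 24.4% and outside genes, which include the 37 mitochondrial ones, 40.8%.

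**Figure D1:**
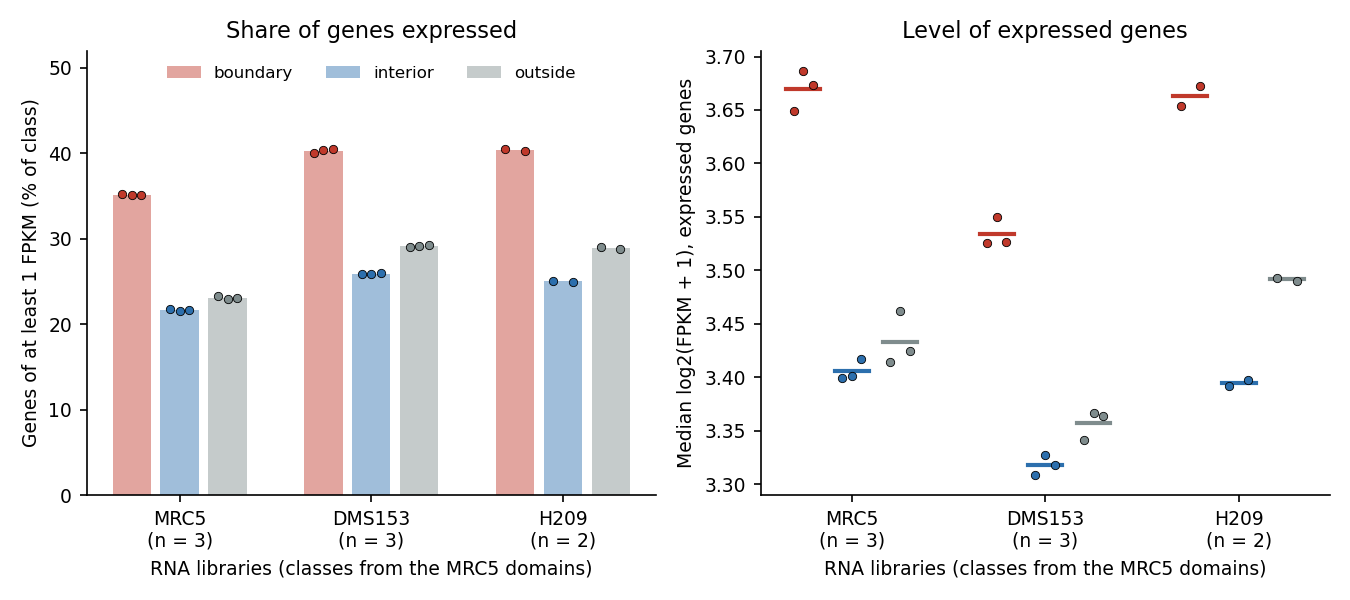
Share of genes of at least 1 FPKM (left; bars are means, points are libraries) and median log2(FPKM + 1) of expressed genes (right; lines are means) for boundary, interior and outside genes of the MRC5 domains, in MRC5, DMS153 and H209 libraries. In MRC5 the boundary share was 35.1% to 35.2% and the interior share 21.6% to 21.8%, and boundary genes were also highest in each carcinoma library.

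The 10 highest boundary genes were FTL, TPT1, TMSB10, RPS27, RPS24, RPL26, RPS2, RPLP0, VIM and COL1A2, so 5 of them encode parts of the ribosome. FTL, the ferritin light chain that stores iron, had 7438, 9564 and 8187 FPKM in MRC5 libraries 1, 2 and 3. It lies at chr19:49468558-49470135 (hg19), 10.7 kb inside the nearest end of a 120 kb domain. RPS27, a protein of the small ribosomal subunit, had 2577, 3226 and 2475 FPKM at 3.93 kb from a domain end. VIM, the intermediate filament protein vimentin of mesenchymal cells, had 1651, 1919 and 1723 FPKM at 25.1 kb. Library 2 was the highest of the MRC5 libraries for FTL, RPS27 and VIM. FTL, TPT1 and ribosomal protein genes have near-identical processed copies, so their reads may be split among loci.

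The highest interior genes were FTH1, B2M, DCN, ACTB, LGALS1, RPL21, CD44 and RPS6. FTH1, the ferritin heavy chain, had 10132, 12029 and 10489 FPKM and lay 149 kb from the nearest end of its 320 kb domain. DCN, the collagen-binding proteoglycan decorin, had 2333, 2481 and 2389 FPKM at 202 kb, and CD44, a hyaluronan receptor, had 1317, 1380 and 1412 FPKM at 213 kb. A very high level was therefore also found deep inside domains. The highest outside genes were EEF1A1, which carries aminoacyl-tRNA to the ribosome, ACTG1, GAPDH, ANXA2, RPS18 and GNB2L1. ANXA2 lay 47.2 kb from a domain end and RPS18 lay 898 kb from one.

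Promoters were read for the protein-coding genes in the RefSeq table of GRCh38.p14, each from 250 bases before to 50 after the annotated start. A promoter of this kind was found for 4567 boundary, 5144 interior and 5746 outside genes. The core CTCF motif was searched on both strands as CCA, any 2 bases, AG, any 2 bases and GGC. It was in 3.04% of boundary, 2.33% of interior and 2.85% of outside promoters, and in 2.74% of these 15457 coding promoters together. Of all 27305 promoters of the table, which are not limited to these coding genes, 2.49% held it. The 3 boundary genes of highest FPKM with a match are printed with the interior gene of highest FPKM with one, so that these windows can be seen beside their distance from a domain end. Capitals mark the motif.
RPLP0: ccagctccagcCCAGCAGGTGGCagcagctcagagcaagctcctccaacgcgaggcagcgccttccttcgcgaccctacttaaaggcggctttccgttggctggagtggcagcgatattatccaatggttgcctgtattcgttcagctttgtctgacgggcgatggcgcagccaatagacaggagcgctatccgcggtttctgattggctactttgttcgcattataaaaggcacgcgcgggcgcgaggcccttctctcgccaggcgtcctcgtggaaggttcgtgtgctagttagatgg
RPL38: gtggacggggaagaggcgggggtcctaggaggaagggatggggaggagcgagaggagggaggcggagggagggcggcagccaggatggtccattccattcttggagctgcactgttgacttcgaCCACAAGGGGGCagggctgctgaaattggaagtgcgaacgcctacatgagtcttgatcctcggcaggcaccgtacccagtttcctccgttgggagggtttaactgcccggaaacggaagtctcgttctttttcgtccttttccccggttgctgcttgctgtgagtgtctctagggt
CALR: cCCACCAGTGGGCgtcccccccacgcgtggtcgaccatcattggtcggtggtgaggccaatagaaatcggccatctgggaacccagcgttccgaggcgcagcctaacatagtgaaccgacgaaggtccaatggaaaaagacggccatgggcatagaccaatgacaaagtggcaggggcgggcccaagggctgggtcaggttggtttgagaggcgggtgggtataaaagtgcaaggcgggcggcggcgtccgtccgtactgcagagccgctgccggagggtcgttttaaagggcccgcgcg
RPS4X: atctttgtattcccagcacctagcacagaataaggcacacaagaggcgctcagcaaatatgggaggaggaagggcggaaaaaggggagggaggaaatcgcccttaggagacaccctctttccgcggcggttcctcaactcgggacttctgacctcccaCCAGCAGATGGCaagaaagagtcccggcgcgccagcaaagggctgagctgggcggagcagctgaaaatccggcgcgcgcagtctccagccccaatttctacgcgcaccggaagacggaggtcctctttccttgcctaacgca
RPLP0, the stalk protein of the large ribosomal subunit, had 1798 ± 180 FPKM in MRC5 and lies 3.23 kb from a domain end, and its window is chr12:120201062-120201361 on the minus strand. RPL38, also of the large subunit, had 789 ± 71.6 FPKM at 3.26 kb, with the window chr17:74203428-74203727 on the plus strand. CALR, a calcium-binding chaperone of the endoplasmic reticulum, had 347 ± 41.2 FPKM at 27.7 kb, with the window chr19:12938359-12938658 on the plus strand. RPS4X, the interior gene, had 448 ± 37.5 FPKM at 466 kb, with the window chrX:72277199-72277498 on the minus strand (all SD, n = 3; windows in GRCh38.p14, distances in hg19). The matches start at positions -239, -126, -249 and -92 from the start in the order printed. Most boundary promoters hold no match, and a match is a run of letters and not a measured binding site.

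Some other promoter features differed by more percentage points between the classes. The ETS-type motif CCGGAAG was in 16.7% of boundary, 11.3% of interior and 15.6% of outside promoters, and in 10.7% of all promoters of the table. TATAAA was in 7.73% of boundary, 10.8% of interior and 9.99% of outside promoters, against 12.0% of the table. At least 10 CpG pairs were in 78.7% of boundary, 71.9% of interior and 71.6% of outside promoters, against 56.0% of the table. CCAAT was in 36.5%, 35.7% and 37.4% and GGGGCGGGG in 24.0%, 22.6% and 21.9% of boundary, interior and outside promoters, with 35.7% and 16.0% in the table. Among expressed genes alone, the ETS motif was in 22.6% of boundary, 16.0% of interior and 23.3% of outside promoters, so outside genes held it as often as boundary genes. The motifs were searched on both strands, and the CG-rich ones can overlap each other and CpG pairs.

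The share of expressed genes declined with distance from a domain end on both sides. Inside domains it was 37.2% at 0 to 10 kb, 32.2% at 10 to 20 kb, 31.1% at 20 to 40 kb, 27.7% at 40 to 80 kb, 24.1% at 80 to 160 kb, 18.3% at 160 to 320 kb, 13.2% at 320 to 640 kb and 9.35% of the 688 genes further in. Outside domains it was 40.2% at 0 to 10 kb and 15.7% beyond 640 kb. On either side of the 40 kb limit, 32.3% ± 0.0870 of the 1327 genes at 35 to 40 kb and 29.5% ± 0.455 of the 1251 genes at 40 to 45 kb were expressed (SD, n = 3). GTF2A2, a subunit of the general transcription factor TFIIA, sat just within the 40 kb limit with 158 ± 3.15 FPKM. LMNA, which encodes the nuclear lamins A and C, sat just beyond it at 41.1 kb with 376 ± 37.9 FPKM.

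Boundary genes on both sides of a domain end lay above the interior share. Of the 7403 inside a domain 33.1% ± 0.0487 were expressed, and of the 5112 outside all domains 38.2% ± 0.0882 (SD, n = 3). Among protein-coding genes the decline with distance was shallower, at 67.4% at 0 to 10 kb and 49.2% beyond 640 kb inside domains and 69.6% and 48.5% outside them.

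**Figure D2:**
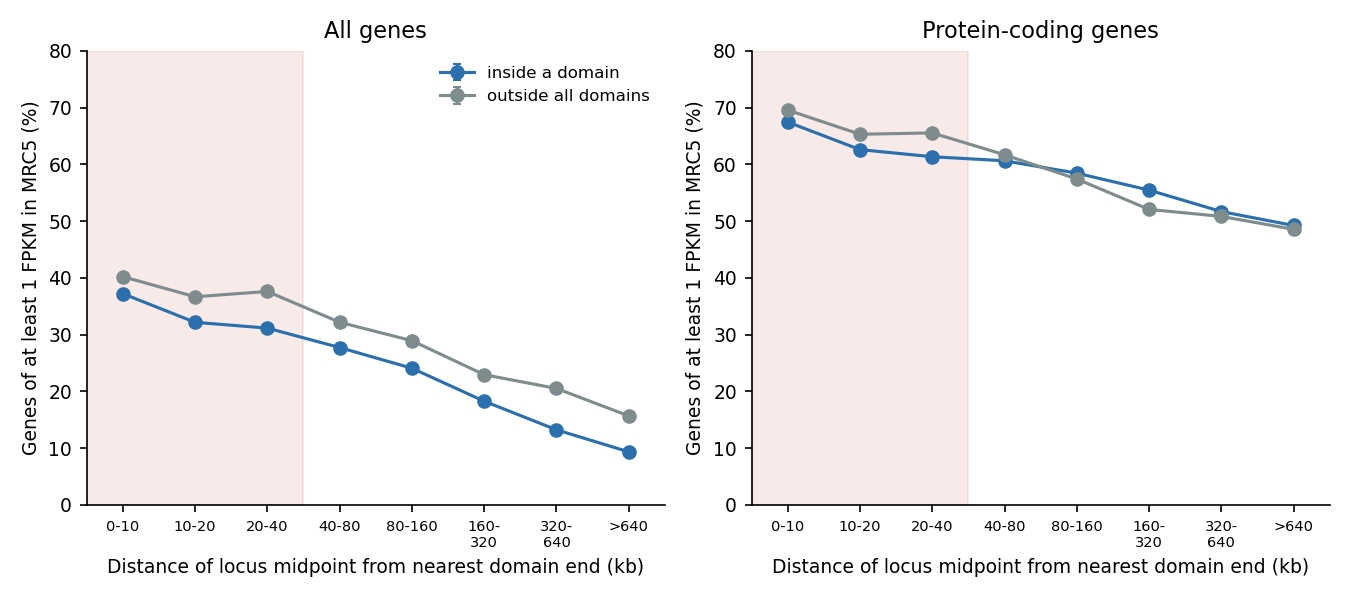
Share of genes of at least 1 FPKM in MRC5 (mean ± SD, n = 3 libraries, most error bars smaller than the points) by distance of the locus midpoint from the nearest domain end, for all genes and protein-coding genes, with the boundary zone shaded. All genes inside domains declined to 9.35% beyond 640 kb, against 37.2% within 10 kb.

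The boundary share was above the interior share on 23 of 23 chromosomes, the Y chromosome left aside. The gap had a median of 12.2 percentage points and ranged between 4.09 on chromosome 18 and 20.0 on chromosome 21. For protein-coding genes it was above 0 on 22 of 23, with a median of 6.97 percentage points. Chromosome 6 was the exception at -1.65 ± 0.615 percentage points. Chromosome 21 stood apart at 44.6 ± 0.827 percentage points (SD, n = 3), with 61 boundary and 99 interior coding genes, and the value was 18.9 ± 1.06 percentage points once the keratin-associated genes were left out, a step chosen after the values were seen.

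The classes also differed in gene type. Protein-coding genes made up 45.9% of boundary, 32.6% of interior and 34.7% of outside genes. Within the coding genes, 64.8% ± 0.0758 of boundary, 57.8% ± 0.0867 of interior and 54.4% ± 0.0811 of outside genes were expressed (SD, n = 3). Of long noncoding RNA genes, 15.3% ± 0.282 of boundary, 8.12% ± 0.248 of interior and 11.8% ± 0.425 of outside genes were expressed. Of pseudogenes, 4.29% ± 0.138 of boundary, 2.53% ± 0.102 of interior and 4.93% ± 0.245 of outside genes were. Boundary genes were thus above interior genes in every gene type named here, by less in coding genes than over all genes, and the outside pseudogenes were above the boundary ones.

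Boundary DNA was denser in genes than interior DNA, but by gene neighbours not denser than DNA around outside genes. The median number of genes within 100 kb was 6 for boundary, 4 for interior and 6 for outside genes. For coding genes it was 6, 4 and 7. The boundary zones inside domains and around them held 26.4 genes per Mb over 473 Mb, against 14.4 per Mb over 1354 Mb of interior. For coding genes the densities were 12.1 per Mb at boundaries and 4.69 per Mb in interiors, and for expressed genes 9.29 per Mb at boundaries and 3.13 per Mb in interiors. Of 6429 distinct domain ends, 80.6% had a gene within 40 kb and 45.6% an expressed gene, with a median of 2 genes per end. Coding boundary loci were shorter, with a median of 20.1 kb, against 48.7 kb for interior and 23.0 kb for outside loci.

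The gap in coding genes was not found at every gene density and length. By quartile of the number of genes within 100 kb, boundary minus interior was -0.18 ± 0.271 percentage points for 0 to 3 neighbours, 7.24 ± 0.0910 for over 3 to 6, 13.3 ± 0.152 for over 6 to 10 and 14.6 ± 0.548 for over 10 to 64 (SD, n = 3). In the sparsest quartile 60.9% of 1311 boundary and 61.1% of 2767 interior genes were expressed. By quartile of locus length, the gap was 21.4 ± 0.0465 percentage points in loci up to 9.29 kb and -0.27 ± 0.0807 in loci over 70.4 kb. In the shortest quartile 51.4% of boundary and 30.1% of interior genes were expressed, and in the longest 68.2% of boundary and 68.4% of interior genes. Gene density and locus length moved with the class gap, and their part in it was not tested.

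Domain size and a comparison within the same domain also bore on the gap in coding genes. Both were read for coding genes inside a domain, so boundary genes outside all domains were left out here. In domains up to 200 kb, 62.4% ± 0.205 of boundary and 62.8% ± 0.264 of interior genes were expressed, and in those over 400 to 800 kb, 65.4% ± 0.430 of boundary and 57.1% ± 0.0618 of interior genes. Within the 1391 domains that held coding genes of both classes, the boundary share was higher than the interior share in 493, lower in 411 and equal in 487. The means over these domains were 64.3% for boundary and 62.6% for interior genes, a difference of 1.63 percentage points. The gap over all coding genes, 7.02 percentage points, pools genes and counts boundary genes outside domains, so it is not a like measure.

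**Figure D3:**
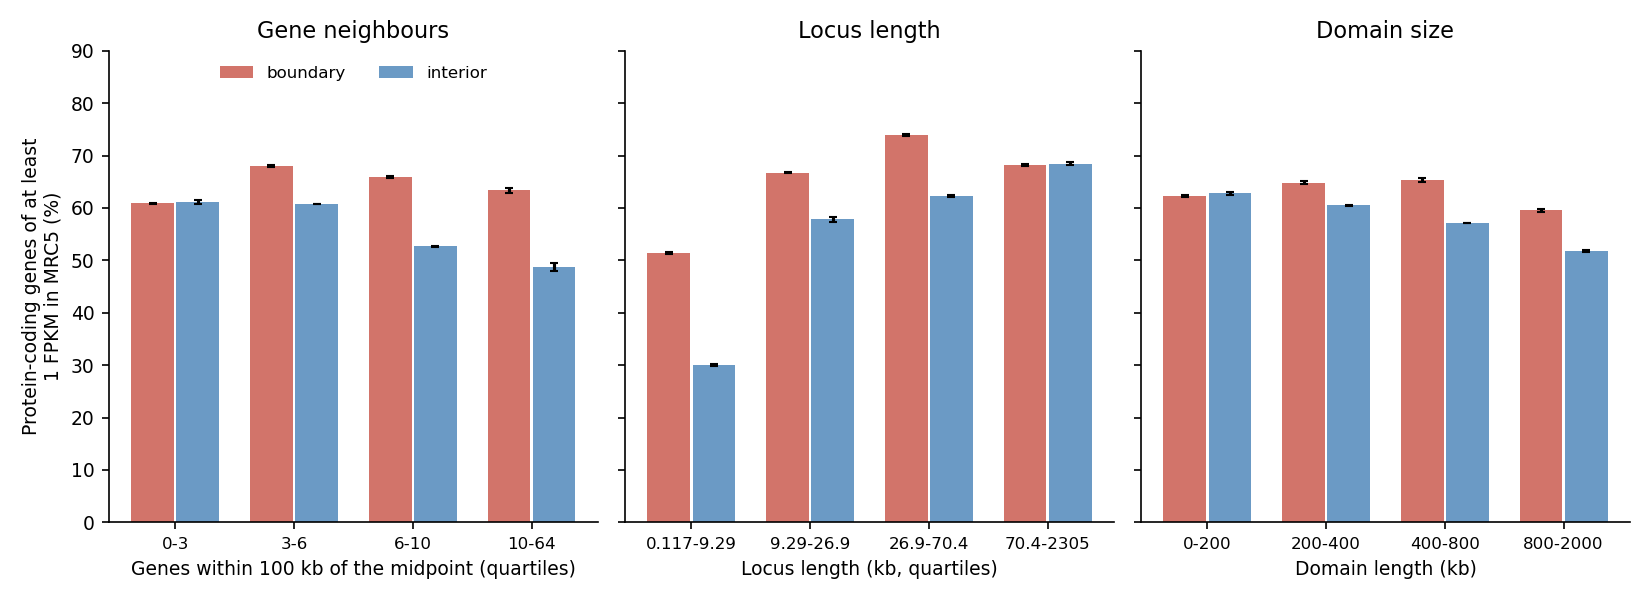
Share of protein-coding genes of at least 1 FPKM in MRC5 (mean ± SD, n = 3 libraries) for boundary and interior genes by number of gene neighbours, locus length and domain length. The domain length panel holds only genes inside a domain. Boundary and interior bars were level in the sparsest quartile (60.9% and 61.1%), in the longest loci (68.2% and 68.4%) and in the smallest domains (62.4% and 62.8%).

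Genes of the basic machinery of the cell lay at boundaries more often than the 29.7% of all coding genes did. This held for 52 of 89 cytosolic ribosomal protein genes (58.4%), 29 of 59 spliceosome genes (49.2%), 38 of 84 nuclear respiratory chain genes (45.2%), 34 of 77 mitochondrial ribosomal protein genes (44.2%), 36 of 82 translation factor and tRNA synthetase genes (43.9%) and 17 of 41 proteasome genes (41.5%). RNA polymerase II, Mediator and TAF genes were nearer the coding share, with 24 of 72 (33.3%). Of the cytosolic ribosomal genes, 7 were interior (7.87%, against 32.9% of all coding genes). The 52 boundary ribosomal genes lay at 51 different domain ends, so they do not come from a few clusters. Shares in this range or above were not limited to these lists. HOX genes had 67.5% at boundaries, mitosis genes 48.6%, mesenchymal and lung transcription factors 45.8%, epithelial genes 44.1% and glycolysis genes 43.5%. These counts describe positions, and no test of the lists was made.

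Most of these genes were expressed, 96.6% of the cytosolic ribosomal and spliceosome lists and 92.7% of the proteasome list among them. Of the boundary members, 51 of 52 cytosolic ribosomal, 34 of 34 mitochondrial ribosomal, 36 of 38 respiratory chain and 28 of 29 spliceosome genes reached 1 FPKM. The median of expressed cytosolic ribosomal genes was 830 FPKM at boundaries and 871 FPKM in interiors, so the boundary members of this list were not the higher ones. COX4I1, a subunit of cytochrome c oxidase, had 247 ± 22.3 FPKM at 3.56 kb from a domain end. EEF2, the elongation factor that moves the ribosome along the messenger, had 1590 ± 101 FPKM at 0.761 kb, and SF3B1, a U2 snRNP protein, had 141 ± 13.2 FPKM at 17.2 kb (SD, n = 3). Zinc finger ZNF genes, most of them repressors of transcription, were placed otherwise: 106 of 534 (19.9%) were boundary genes, and 74.7% of the list was expressed at a median of 3.37 FPKM.

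Fibroblast matrix and signalling lists differed from each other in their placement. Collagen chains split evenly, with 15 of 44 at boundaries and 14 in interiors, and 14 of the boundary collagens but 7 of the interior ones were expressed. COL1A2, a chain of type I collagen, had 1582, 1764 and 1643 FPKM at 17.8 kb from a domain end. COL6A3, a chain of type VI collagen, had 873, 986 and 877 FPKM at 202 kb. Matrix glycoproteins and proteoglycans were more often interior, with 16 of 48 at boundaries and 25 in interiors (52.1%, against 32.9% of all coding genes). SPARC, a collagen-binding matrix protein, had 1404 ± 43.0 FPKM as a boundary gene at 33.7 kb, and TGFBI, a matrix adhesion protein induced by TGF-beta, had 478 ± 17.8 FPKM as an interior gene at 162 kb.

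Matrix enzymes and their inhibitors had 8 of 36 members at boundaries and 15 in interiors, and all 36 were expressed. Among them MMP2, a gelatinase, had 203 ± 17.0 FPKM at 2.11 kb from a domain end, and MMP14, a membrane-anchored collagenase, had 342 ± 11.2 FPKM at 68.0 kb in an interior. Inflammatory and secretory genes had 11 of 39 members at boundaries and 25 in interiors (64.1%). IGFBP5, which binds insulin-like growth factors, had 919 ± 12.9 FPKM at 8.54 kb, and IGFBP7, of the same family, had 789 ± 25.9 FPKM at 56.7 kb in an interior (SD, n = 3). Contractile and focal adhesion genes were even, with 14 of 45 at boundaries and 13 in interiors. Mesenchymal and lung transcription factors had 22 of 48 at boundaries (45.8%) and 23 in interiors (47.9%). Among them were FOXF1, a lung mesenchyme regulator, with 116 ± 9.18 FPKM at a boundary, and ZEB1, a repressor of epithelial genes, with 72.6 ± 8.85 FPKM in an interior.

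**Figure D4:**
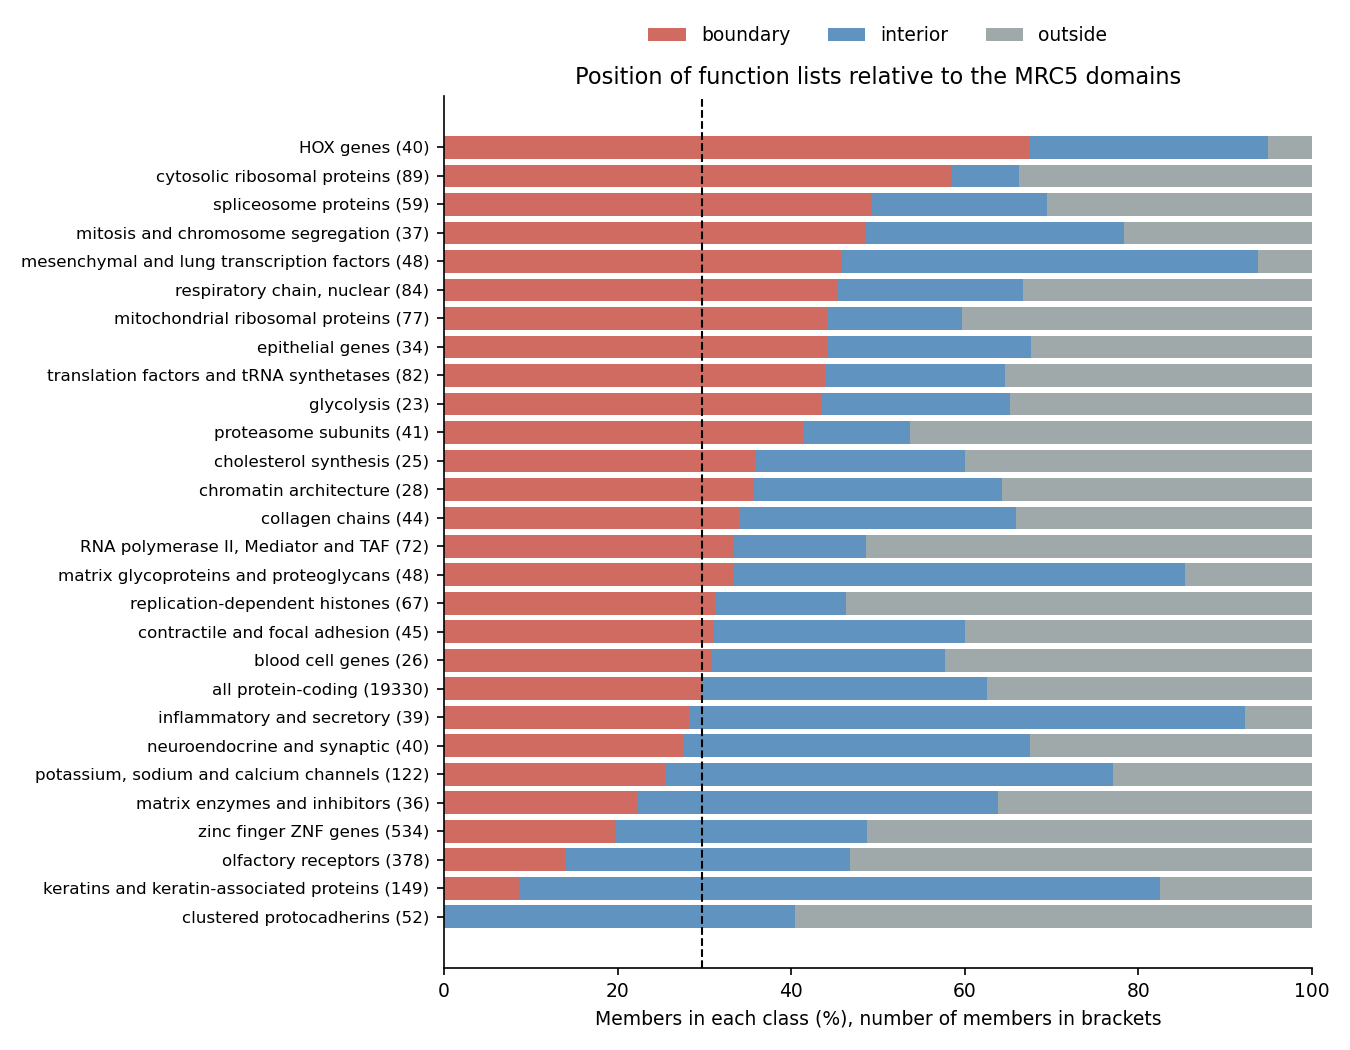
Percentage of the members of each function list that were boundary, interior or outside genes of the MRC5 domains, ordered by the boundary share, with the number of members in brackets and the boundary share of all protein-coding genes (29.7%) as a dashed line. Ribosomal, spliceosome, respiratory chain, HOX, mitosis and epithelial lists lie above the line, and keratins (8.72%), olfactory receptors (14.0%) and protocadherins (none of 52) below it.

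Keratins (8.72%), olfactory receptors (14.0%) and clustered protocadherins lay at boundaries less often than all coding genes (29.7%). Replication-dependent histones (31.3%) and ion channels (25.4%) lay nearer that share. Of all coding genes 32.9% were interior and 37.4% outside, against 32.8% and 53.2% of olfactory receptors. Of 149 keratin and keratin-associated genes, 13 were boundary and 110 interior genes, and 7 of all 149 (4.70%) were expressed. Olfactory receptors had 53 of 378 members at boundaries, none of them expressed, and the single expressed member was OR51E2, an interior gene at 5.62 ± 0.300 FPKM. None of 52 clustered protocadherins, adhesion proteins best known from neurons, was a boundary gene, while 21 were interior. HOX genes, which set position along the body axis, went the other way, with 27 of 40 at boundaries, but these lay at only 6 domain ends and 7 were expressed. HOXB7 had 12.9, 18.4 and 15.4 FPKM at 22.2 kb from a domain end, and its neighbour HOXB6 had 13.5, 17.2 and 15.6 FPKM just beyond the limit at 43.0 kb. Replication-dependent histones had 21 of 67 at boundaries, at 4 domain ends, of which 2 were expressed, and their near-identical copies and missing poly(A) tails make these values uncertain. Ion channel genes had 31 of 122 at boundaries, 4 of them expressed, and 63 in interiors.

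A crowded boundary and a silent interior show both ends of this range, and both were chosen after their values were seen. The domain end at base 24700000 of chromosome 14 (hg19) had 12 genes within 40 kb, of which 10 were expressed. They ran between NEDD8, a ubiquitin-like modifier, at 159 ± 12.6 FPKM, and TGM1, a transglutaminase, at 1.25 ± 0.343 FPKM, and included CHMP4A, of the ESCRT-III membrane complex, at 51.3 ± 4.31 FPKM and TINF2, a telomere protein, at 15.0 ± 0.0998 FPKM (SD, n = 3). NEDD8, MDP1 and the joint locus NEDD8-MDP1 overlap, and their reads cannot be assigned with certainty. The domain at chr21:31260000-32459998 (hg19) held 35 coding interior genes, 33 of them keratin-associated, and all 35 were listed at 0 in the MRC5 libraries.

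The same classes were then read in the carcinoma libraries, which asks whether the pattern at MRC5 boundaries belongs to MRC5. With MRC5 domains, boundary minus interior was 13.4, 13.6 and 13.4 percentage points in MRC5 libraries 1, 2 and 3, between 14.2 and 14.5 in the 3 DMS153 libraries and 15.2 and 15.3 in the H209 libraries. The MRC5 mean was lower than the mean of the carcinoma libraries by 1.29 percentage points (difference -1.29; exact permutation test over 3 against 5 libraries, 2-sided, p = 0.0357, the smallest p that 56 arrangements allow, and 0.0536 after Benjamini-Hochberg adjustment over 3 gaps). The groups did not overlap, but the adjusted p missed 0.05. The ratio of the boundary share to the interior share ran the other way, at 1.62 ± 0.00790 in MRC5, 1.55 ± 0.00327 in DMS153 and 1.61 ± 0.000727 in H209 libraries, and so did the gap in coding genes, at 0.16 percentage points more in MRC5 (exact permutation p = 0.714). More genes were expressed in the carcinoma libraries, 15926 to 16252 of them. The gap to outside genes was larger in MRC5 by 0.798 percentage points (exact permutation p = 0.0357, adjusted 0.0536), and the level gap by 0.03 (p = 0.25, adjusted 0.25).

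Boundary genes differed little by whether the boundary was also found in the carcinoma lines. Of the 8590 boundary genes whose domain end lay within 40 kb of one in both carcinoma lines, 35.4% ± 0.0485 were expressed in MRC5, against 34.8% ± 0.133 of 2300 shared with one line and 34.7% ± 0.233 of 1625 shared with neither (SD, n = 3). The values were closer to each other than to the interior share of 21.7%. Among coding genes they were 65.5% ± 0.0290, 64.2% ± 0.645 and 62.3% ± 0.155. Genes expressed in all 3 lines made up 58.8% of coding boundary genes, 48.7% of coding interior genes and 49.8% of coding outside genes. Of coding genes expressed in MRC5 and in neither carcinoma line, interiors held a larger share than boundaries did, and boundaries a larger share than outside regions, with 182 boundary genes (3.17%), 324 interior genes (5.10%) and 148 outside genes (2.05%).

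Genes were tested between MRC5 and the mean of both carcinoma lines with limma on log2(FPKM + 1). A call needed an adjusted p (Benjamini-Hochberg, over all tested genes) under 0.05 and a change of 1 or more on the log2 scale. In MRC5, 2781 of the 18727 tested genes (14.9%) were higher and 6012 (32.1%) were lower. Among boundary genes 899 of 5757 (15.6%) were higher, close to the share over all genes, against 1147 of 5988 interior genes (19.2%) and 735 of 6982 outside genes (10.5%). Lower calls were made for 1674 boundary genes (29.1%), 1982 interior genes (33.1%) and 2356 outside genes (33.7%). The balance depended on the scaling. With median ratio scaling, 3452 of 18611 tested genes were higher and 4983 were lower. Higher calls were then made for 1150 of 5719 boundary, 1344 of 5962 interior and 958 of 6930 outside genes. Lower calls were made for 1390 boundary, 1664 interior and 1929 outside genes. With TPM scaling, 2290 of 18855 tested genes were higher and 7135 were lower. Higher calls were then made for 720 of 5795 boundary, 971 of 6039 interior and 599 of 7021 outside genes. Lower calls were made for 2018 boundary, 2308 interior and 2809 outside genes. The median log2 change was -0.40 at boundaries, -0.52 in interiors and -0.63 outside, against -0.53 over all genes, so each is read relative to that shift, which was -0.30 with median ratio scaling and -0.70 with TPM scaling. Sharing of the boundary made little difference to the calls: 15.8%, 15.2% and 15.1% were higher at boundaries found in both, one or neither carcinoma line, and 29.2%, 28.7% and 28.8% were lower.

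Calls among boundary genes were frequent in several lists, beside 14.9% higher and 32.1% lower over all genes. Of boundary genes tested, 13 of 14 collagen chains, 12 of 15 matrix glycoproteins, 7 of 8 matrix enzymes and inhibitors, 12 of 14 contractile genes and 8 of 9 inflammatory and secretory genes were higher in MRC5, and none of these was lower. The interior members gave 7 of 9, 20 of 20, 13 of 15, 11 of 13 and 11 of 17 higher. All 18 boundary genes of mitosis and all 13 boundary epithelial genes tested were lower in MRC5, as were 11 of 11 and 8 of 8 interior ones. Testing needed 1 FPKM in at least 2 libraries, and 11 of the 13 epithelial, 8 of the 10 neuroendocrine, 16 of the 23 HOX and 3 of the 18 mitosis genes tested at boundaries were under 1 FPKM in all MRC5 libraries, so they were tested only through the carcinoma libraries where they are high and had to be lower in MRC5. In the same way, 4 of the 14 collagen, 3 of the 15 matrix glycoprotein, 2 of the 8 matrix enzyme, 5 of the 14 contractile and 2 of the 9 inflammatory genes at boundaries were tested only through MRC5. The interior counts have the same limit. Of interior genes tested, 7 of 8 epithelial, 1 of 11 mitosis, 2 of 9 collagen and 4 of 17 inflammatory genes were tested only through the carcinoma libraries. Only through MRC5 were 5 of 9 collagen, 5 of 20 matrix glycoprotein, 8 of 15 matrix enzyme, 2 of 13 contractile and 7 of 17 inflammatory interior genes tested. Of 10 neuroendocrine and synaptic boundary genes 9 were lower, the other being UCHL1, a ubiquitin hydrolase, at 734 ± 49.6 FPKM in MRC5, against 269 ± 13 FPKM in DMS153 (SD, n = 3 each) and 542 and 567 FPKM in H209 libraries, a change of 0.92 ± 0.07 on the log2 scale, under the limit of 1, which became a higher call at 1.21 with median ratio scaling and was 0.65 with TPM scaling. Cytosolic ribosomal genes had 20 of 51 boundary members higher and none lower, and this count was 31 with median ratio scaling and 13 with TPM scaling. Of all coding boundary genes, 774 of 4469 were higher, 991 of 4453 with median ratio scaling and 617 of 4480 with TPM scaling. HOX genes had 15 of 23 boundary members lower and none higher.

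The largest changes at boundaries found in all 3 lines ran in both directions. COL1A1, the other chain of type I collagen, had 1087, 1217 and 1210 FPKM in MRC5 libraries, against 0.801 to 1.29 FPKM in DMS153 and 0.634 and 0.945 FPKM in H209 libraries. It lies at chr17:48260650-48278993 (hg19), 29.8 kb from a domain end, and its log2 change was 9.27 ± 0.10 (SE, limma adjusted p = 1.3e-12). CTGF, a matricellular growth factor, had 667, 700 and 689 FPKM in MRC5, against 1.33 to 2.46 FPKM in DMS153 and 0.0203 and 0.0865 FPKM in H209 (log2 change 8.62 ± 0.11). COL1A2, given above, changed by 8.61 ± 0.09, and F3, the coagulation starter tissue factor, had 836, 778 and 800 FPKM in MRC5, against 2.47 to 2.74 FPKM in DMS153 and 0.278 and 0.642 FPKM in H209 (log2 change 8.47 ± 0.08). The rule that picked these genes required that no MRC5 library overlap a carcinoma library, so the lack of overlap is not a result.

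In the opposite direction, CHGA, chromogranin A of neuroendocrine secretory granules, had at most 0.00456 FPKM in MRC5, against 219 to 348 FPKM in DMS153 and 350 and 361 FPKM in H209 (log2 change -8.27 ± 0.13). EPCAM, an epithelial adhesion molecule, had 0.0462 to 0.161 FPKM in MRC5, against 253 to 323 FPKM in DMS153 and 279 and 281 FPKM in H209 (log2 change -8.01 ± 0.08). TAGLN3, a neuronal relative of transgelin, had 0.00316 to 0.0375 FPKM in MRC5, against 62.7 to 72.2 FPKM in DMS153 and 226 and 278 FPKM in H209 (log2 change -7.00 ± 0.08). INSM1, a zinc finger factor of neuroendocrine cells, was listed at 0 in all MRC5 libraries and at 168 to 237 FPKM in DMS153 and 294 FPKM in both H209 libraries. CHGA, EPCAM, TAGLN3 and INSM1 were under 1 FPKM in all MRC5 libraries. They were tested only through the carcinoma libraries where they are high, and had to be lower in MRC5. All 8 genes, these and the higher ones above, lay within 40 kb of a domain end that was also found in both carcinoma lines. The calls are those of a rule that picked the largest changes.

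**Figure D5:**
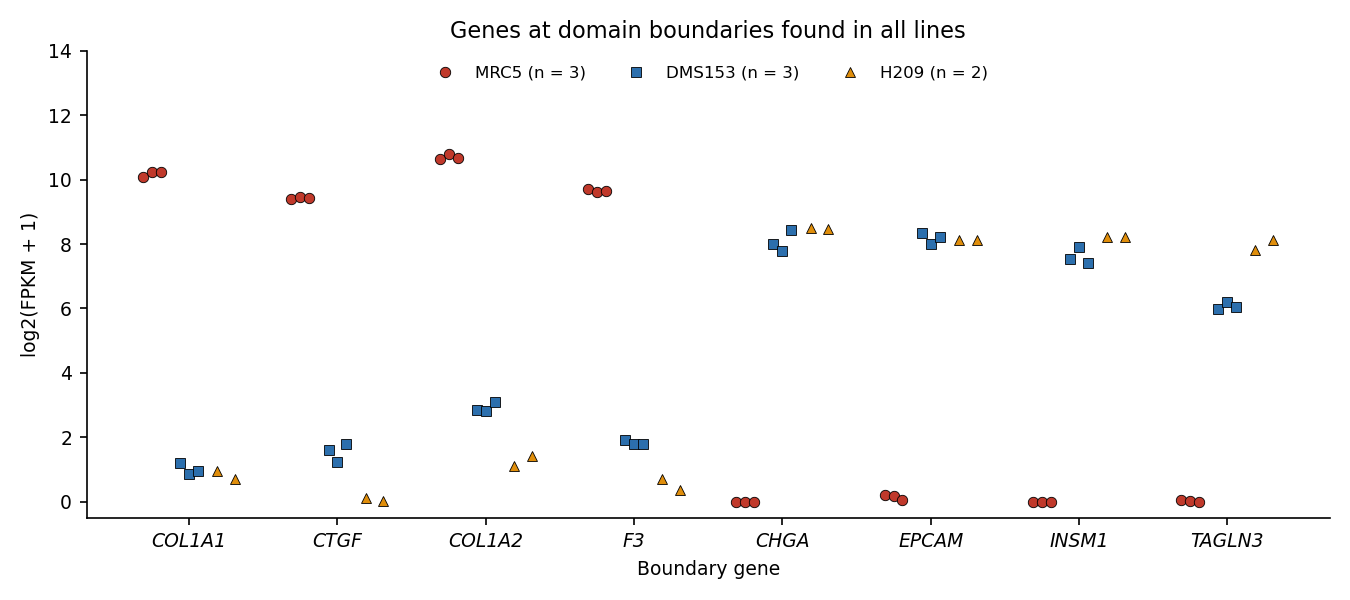
log2(FPKM + 1) in each MRC5, DMS153 and H209 library for the 4 boundary genes with the largest higher and the 4 with the largest lower calls in MRC5 at boundaries found in all 3 lines. MRC5 points are far above the carcinoma points for COL1A1, CTGF, COL1A2 and F3 and near 0 for CHGA, EPCAM, INSM1 and TAGLN3.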

How the data were processed

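RNA tables of 8 libraries and Hi-C domain lists of 3 lines were used as deposited. Per the submitters' processing notes, TopHat2 2.1.0, Cufflinks 2.2.0, Bowtie2, HOMER 4.8 and hg19 were used. Per the file headers, the authors deposited FPKM per gene with a confidence interval and a status, and 37 genes with a status other than OK in MRC5 were kept but not named. The deposited domain lists give positions and a score, used only for an alternative. No source used here gives RNA selection, strand or depth, so overlapping and antisense genes can share reads.

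Genes were classed by locus midpoint with pandas 2.3.3, and 35907 of 52867 were matched by name to RefSeq, 19330 of them protein-coding. Class differences are means and SD over libraries, with no test across genes. Gaps were compared between lines by an exact permutation test. Single genes were tested with limma 3.58.1 (a mean per line, trend, 5 residual degrees of freedom) over genes of at least 1 FPKM in at least 2 libraries. The scale log2(FPKM + 1) understates changes of low genes. On simulated data the fit called 200 of 200 moved genes and no other of 16532. The moves were larger than the call limit and large beside the simulated noise. The result checks the code and does not measure an error rate in these data.

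The classes, the 27 function lists and the tests were chosen with earlier results of these data known. Named genes are the 10 boundary, 8 interior and 6 outside genes of highest mean MRC5 FPKM, the 2 boundary and 2 interior members of each list of highest mean FPKM, and the 4 largest higher and 4 largest lower calls without overlap at boundaries of all 3 lines, with a mean of 5 FPKM or more in the higher group; small RNA, mitochondrial, Y-linked and clone genes were not named. Alternatives covered boundary distance, gene position, FPKM limit, symbols, scaling, domains, the replicate number and each library left out.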

Additional observations from a re-analysis of the deposited data

How the results depend on the processing

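All alternatives run kept more expressed genes at boundaries. The boundary minus interior share, 13.5 percentage points, was 13.3 at a boundary distance of 20 kb, 16.7 by locus start, 16.3 by locus end, 23.8 with any part of the locus counted, 16.5 at 0.1 FPKM, 10.2 at 5 FPKM, 12.5 with small RNA kept, 12.8 without clones, 17.7 without loci over 100 kb, 13.0 with the higher-scored domains, 12.7 and 13.6 with DMS153 and H209 domains, and 7.02 in protein-coding genes. Boundary minus outside was 11.3 percentage points at 80 kb and, for the settings from locus start to coding genes in the order just given, 13.8, 13.6, 18.8, 15.1, 9.52, 10.9, 15.4, 12.8, 10.7, 9.26, 8.88 and 10.5 percentage points, and 11.7 without chromosomes M and Y. The log2 level gap was 0.30 at 20 kb, 0.33 at 80 kb, 0.38 at 0.1 FPKM, 0.21 at 5 FPKM, 0.31 without clones, 0.29 without long loci, 0.24 with H209 domains, 0.29 with a pseudocount of 0.1 and 0.31 in coding genes. Other alternatives moved these values by less than 1 SD over libraries. The MRC5 minus carcinoma difference in the gap was -1.53 at 0.1 FPKM and -1.55 without long loci, both with an exact permutation adjusted p of 0.0357. Its unadjusted p was 0.0357 there, as in the main run. The lower adjusted p came from the p-values of the other gaps in the adjustment, so it is not stronger evidence for this gap. The difference was -0.58 with H209 domains (exact permutation p = 0.143), -2.02 with any part of the locus counted and -2.0 with the higher-scored domains. It reversed in coding genes (0.16) and as a ratio (0.043), and the cause was not tested. The coding, ratio and chromosome alternatives were chosen after seeing the data. Leaving out 1 library gave 13.4 to 13.5, 12.0 to 12.1, 0.25 to 0.27 and -1.42 to -1.14 for these 4 values. Boundary calls were 500 higher and 893 lower at 20 kb and 1462 and 2756 at 80 kb, where interior higher calls were 754, because the classes change size. Leaving out 1 library gave 875 to 905 higher and 1601 to 1683 lower boundary calls and 1131 to 1151 and 1891 to 1994 interior ones. The 8 genes at shared boundaries kept their calls in the 14 alternatives that refit them. They had been picked for the largest changes, far past the limit of 1, so this was all but fixed by the choice. Of the 8 genes, 3 lay within 20 kb of a domain end. Same-numbered libraries correlated at -0.017 to 0.113 in their deviations, so the numbers did not pair them, and a replicate block gave 2770 higher and 6001 lower calls, 892 and 1666 of them at boundaries. The depth is unknown, and 1 Hi-C library per line leaves the error of the domain ends unmeasured.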

Other observations

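The other lists of cell functions were placed as follows. Glycolysis genes had 10 of 23 at boundaries and 5 in interiors, and all 23 were expressed; PKM, which makes pyruvate, had 693 ± 74.9 FPKM at a boundary (SD, n = 3). Cholesterol synthesis genes had 9 of 25 at boundaries and 6 in interiors, and 6 of 9 boundary members and 6 of 6 interior members were lower in MRC5 than in the carcinoma lines by limma. Over all genes tested 32.1% were lower, and 28.1% of coding boundary and 33.1% of coding interior genes. The cholesterol counts were 6 of 9 and 5 of 6 with median ratio scaling and 8 of 9 and 6 of 6 with TPM scaling. With median ratio scaling, 1051 of 4453 coding boundary and 1305 of 4680 coding interior genes were lower. With TPM scaling these were 1529 of 4480 and 1816 of 4684. Genes of mitosis and chromosome segregation had 18 of 37 at boundaries. Genes of chromatin architecture, which include CTCF and cohesin subunits, had 10 of 28 at boundaries and 8 in interiors. Of boundary members tested 8 of 9 were lower in MRC5, beside the same 32.1% over all genes and 28.1% of coding boundary genes. Of the 9, 1 was under 1 FPKM in all MRC5 libraries. With median ratio scaling 6 of 9 were lower, beside 1051 of 4453 coding boundary genes. Of interior members 4 of 8 were lower. RAD21, a cohesin subunit, had 39.1 ± 1.67 FPKM in MRC5, against 135 FPKM in DMS153 and 167 FPKM in H209 on average, and is itself an interior gene.

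Lists of other cell types were also found at boundaries, where 29.7% of all coding genes lay. Epithelial genes had 15 of 34 at boundaries, 2 of them expressed in MRC5, blood cell genes 8 of 26 with 2 expressed, and neuroendocrine and synaptic genes 11 of 40 (27.5%) with 2 expressed. The 2 expressed epithelial boundary genes were KRT8, a keratin, at 24.6 ± 1.63 FPKM and MUC1, an epithelial mucin, at 1.83 ± 0.113 FPKM and 0.505 kb from a domain end.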
